A study of Homo sapiens with 8 samples.

Results

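Messenger RNA of the hypoxia-inducible factor (HIF) subunits and of 2 of the proteins that restrain them was followed through 24 h of low oxygen in a rhabdomyosarcoma line. The genes are HIF1A and EPAS1, which encode the oxygen-regulated alpha subunits HIF-1α and HIF-2α, ARNT and ARNT2, which encode their beta partners, HIF1AN, which encodes factor inhibiting HIF, and VHL. The members are all probe sets annotated with exactly one of these 6 symbols, 10 of the 22215 probe sets that are not array controls. ARNT has 3 of them, EPAS1 and HIF1AN have 2 each, and HIF1A, ARNT2 and VHL have 1 each.

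The cells are SJRH30, an established human alveolar rhabdomyosarcoma line grown in RPMI medium with fetal bovine serum. RNA came from cells never placed in 1% oxygen (0 h) and from cells kept there for 6, 12 or 24 h, with 2 arrays for each of the 4 times. The labels call the replicates biological without saying how the cultures were set up, so a p-value measures the spread between these arrays. No culture held in normal oxygen for 6, 12 or 24 h was analysed here, so the effects of hypoxia and of time in culture cannot be told apart.

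In cells with enough oxygen, prolyl hydroxylases (EGLN proteins) mark the alpha subunits, and the VHL protein, the recognition subunit of a ubiquitin ligase built on elongins B and C and cullin 2, then sends them to the proteasome. Factor inhibiting HIF hydroxylates an asparagine in the alpha subunits and so blocks the binding of the coactivators CREBBP and EP300. When oxygen falls, both hydroxylations slow, the alpha subunits pair with ARNT or ARNT2, and the dimers bind short hypoxia response elements near their target genes. Because this control acts on protein, an array reads only the supply of messenger RNA for each part and not the amount or activity of HIF.

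Each value is a log2 probe set signal, so a difference of 1 is a doubling, and signals of different probe sets cannot be ranked as amounts of RNA. Values of replicate arrays correlated at 0.997 or higher across probe sets, which are not independent, and those of arrays from different times at 0.993 to 0.998. The 12 h arrays had the narrowest spread, with interquartile ranges of 3.63 and 3.68 against 3.77 to 3.81 on the other 6. Signals of 24 poly-A control RNA probe sets averaged above those of 0 h by 0.47, 0.43 and 0.65 at 6, 12 and 24 h. The labels give the cell type as muscle fibroblasts. By brightness, 8 of 10 muscle and rhabdomyosarcoma markers were brighter than the median probe set, among them MYOD1, MYOG and FGFR4, while MYF5 and PAX7 were among the dimmest 25%. Only 2 of 8 fibroblast markers were brighter than the median probe set, the collagen genes COL1A1 and COL3A1.

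EPAS1 messenger RNA fell under hypoxia, and it was the only one of the 6 genes with a probe set that passed the test. The fall was small, 1.23-fold to 1.36-fold, and was called at every hypoxic time. HIF1A, ARNT2, HIF1AN and VHL passed at no time, and the 3 ARNT probe sets differed in sign at 12 and 24 h. The test was limma's moderated test fitted to all 22215 probe sets, and a probe set was called at a Benjamini-Hochberg adjusted p under 0.05.

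At 6 h 1 of the 10 member probe sets was called, against 2.7% of all probe sets, and it was lower, as 0.855% of all were. At 12 h the count was again 1, against 16.2% called and 9.85% called lower among all. At 24 h it was 1, against 14.7% called and 7.8% called lower. The test over the whole time course called 1 member probe set as well, against 12.6% of all. From 6 to 24 h limma called 0 of 10, against 1.48% of all. There 1 member probe set was under an unadjusted p of 0.05, as were 3765 of all 22215. At 6, 12 and 24 h against 0 h this held for 2, 3 and 4 member probe sets, and for 3875, 6981 and 6366 of all. At 12 and 24 h the share of called members, 10% with only 10 probe sets, was thus no higher than the share over the array.

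**Figure D1:**
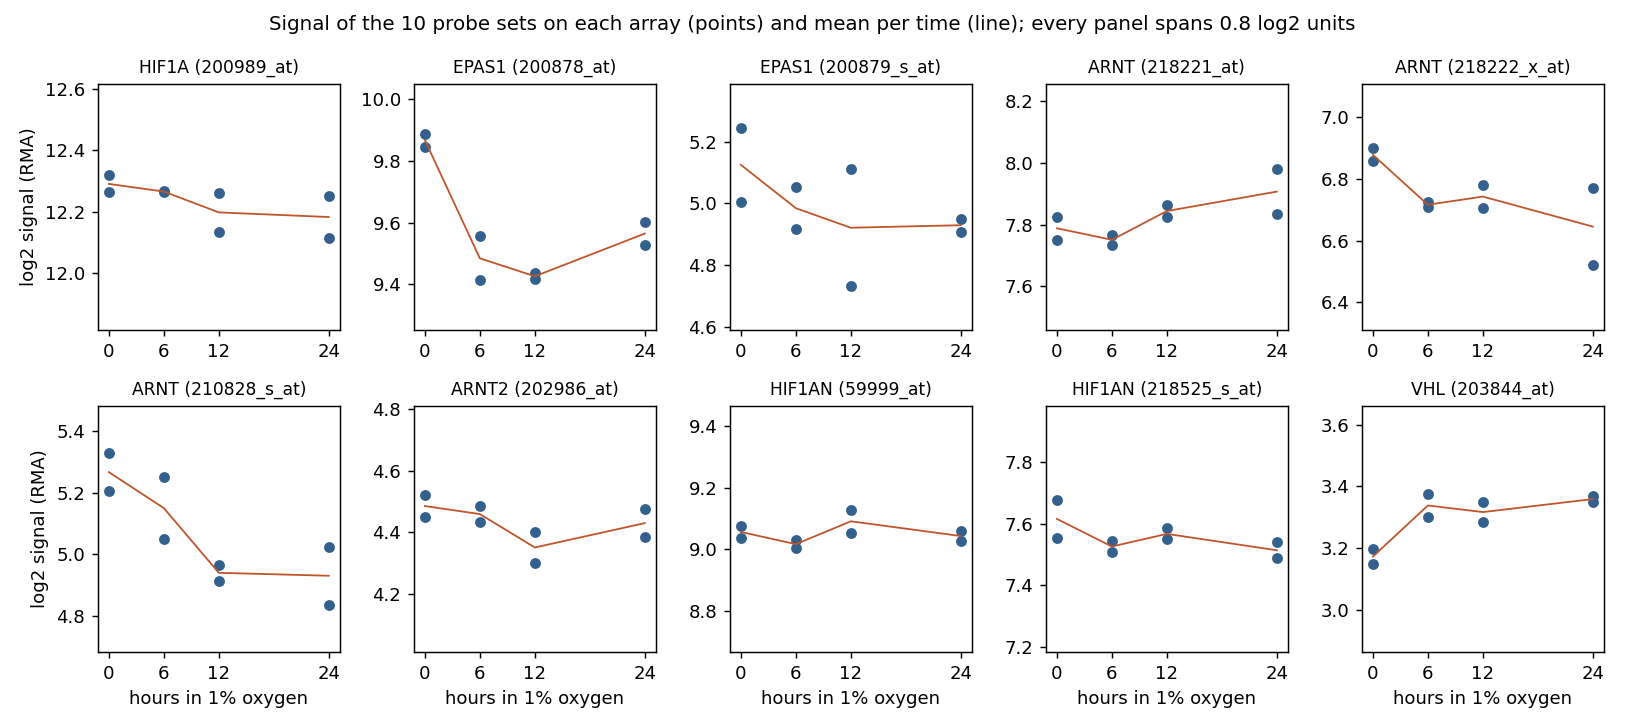
Log2 signal of the 10 probe sets (vertical axes, each spanning the same height) against hours in 1% oxygen, with 1 point per array and a line through the mean of the 2 arrays of each time. EPAS1 probe set 200878_at drops from 9.87 at 0 h to 9.43 at 12 h, while HIF1A stays between 12.11 and 12.32.

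The alpha subunits come first, since their protein is what oxygen controls. HIF-1α is made in most cell types, and HIF-2α was first known from endothelium. Of RefSeq's promoter windows on assembly GRCh38.p14, cut here to the 250 bases upstream of a start site, those of 4 members could be matched: HIF1A (2 start sites), EPAS1, ARNT and HIF1AN. The windows of EPAS1 and of the first HIF1A start site are shown, since these are the 2 alpha subunit genes, of which only EPAS1 was called. Capitals mark the core letters of a hypoxia response element, searched as ACGTG or GCGTG on both strands. EPAS1 is at chr2:46297157-46297406 and HIF1A at chr14:61695263-61695512, both on the plus strand.
EPAS1: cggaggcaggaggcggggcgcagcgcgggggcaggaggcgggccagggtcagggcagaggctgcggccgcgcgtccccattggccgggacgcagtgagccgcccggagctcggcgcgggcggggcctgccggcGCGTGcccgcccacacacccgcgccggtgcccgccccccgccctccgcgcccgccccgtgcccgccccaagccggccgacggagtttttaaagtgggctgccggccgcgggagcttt
HIF1A: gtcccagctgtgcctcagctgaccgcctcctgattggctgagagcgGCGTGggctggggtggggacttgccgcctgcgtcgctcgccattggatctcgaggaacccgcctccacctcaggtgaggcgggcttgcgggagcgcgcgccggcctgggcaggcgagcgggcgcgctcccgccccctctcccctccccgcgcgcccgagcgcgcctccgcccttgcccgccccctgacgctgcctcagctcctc

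Both windows held 1 match, GCGTG on the gene's own strand, which began 117 bases upstream of the EPAS1 start and 204 bases upstream of the HIF1A start. The windows of ARNT, HIF1AN and the other HIF1A start had 0. Among all 35116 RefSeq windows of this length 43.2% held at least 1 match, and 18.5% held ACGTG. A match is a description of letters, and these windows set EPAS1 apart from HIF1A by neither the number nor the kind of match. They were rich in G and C, 80.8% in EPAS1 and 75.6% in HIF1A against a median of 58% over all windows.

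EPAS1 was read by probe set 200878_at at 9.89 and 9.85 at 0 h, 9.56 and 9.41 at 6 h, 9.44 and 9.42 at 12 h, and 9.60 and 9.53 at 24 h. All 6 hypoxic arrays lay below both arrays at 0 h, and the lowest mean was at 12 h. The mean fell from 9.87 ± 0.03 (SD, n = 2) to 9.48 ± 0.10 at 6 h, a log2 change of -0.38 ± 0.07 (SE), or 1.30-fold lower (limma adjusted p = 0.0326, 95% interval -0.54 to -0.22). At 12 h the mean was 9.43 ± 0.01, a change of -0.44 ± 0.07, or 1.36-fold lower (adjusted p = 0.00627, interval -0.60 to -0.28). At 24 h it was 9.56 ± 0.05, a change of -0.30 ± 0.07, or 1.23-fold lower (adjusted p = 0.025, interval -0.46 to -0.14). A change of this size or larger in either direction was shown by 2.37% of all probe sets at 6 h, 5.32% at 12 h and 12.8% at 24 h. In order of level the times ran 0, 24, 6 and 12 h in the values as deposited. Further quantile normalization put 6 and 12 h at -0.387 and -0.381, so the place of 12 h as the lowest time depends on the normalization. Arrays of 6 h overlapped those of 12 and of 24 h, and the difference of 24 h from 6 h, 0.08 ± 0.07, did not pass (adjusted p = 0.605). Both 24 h arrays lay above both 12 h arrays, a difference that was not tested.

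These EPAS1 calls rest on few arrays. Without 0 h replicate 1 the adjusted p was 0.244, 0.0571 and 0.15 at 6, 12 and 24 h, and without 0 h replicate 2 it was 0.189, 0.0483 and 0.111. Without 6 h replicate 1 or 2 it was 0.103 or 0.178 at 6 h, and without 24 h replicate 1 or 2 it was 0.0559 or 0.0833 at 24 h. In all of these the change stayed negative, and a lone array was assumed to vary like the others.

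The other EPAS1 probe set, 200879_s_at, was dimmer, brighter than only 25.2% of all probe sets. It read 5.24 and 5.00 at 0 h, 5.05 and 4.92 at 6 h, 4.73 and 5.11 at 12 h, and 4.91 and 4.95 at 24 h. Its arrays of 6 and 12 h overlapped those of 0 h. Its changes of -0.14, -0.20 and -0.20 had the same sign as those of 200878_at and did not pass (adjusted p = 0.665, 0.332 and 0.386). With a standard error of 0.13, nearly double that of 200878_at, its intervals held both 0 and the changes of the brighter probe set.

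EPAS1 is a marker of endothelium, so endothelial genes were read beside it. Of 8 such markers 5 were among the dimmest 25% of probe sets, and their mean log2 signal lay between 5.14 and 5.29 on all 8 arrays, with means of 5.16, 5.19, 5.27 and 5.27 at 0, 6, 12 and 24 h. Among them TEK, an endothelial receptor gene, rose by 0.31 at 6 h and 0.37 at 24 h (adjusted p = 0.0432 and 0.00789), which its other probe set did not show (0.09 and -0.002). Among all 11963 genes 1.95%, 6.55% and 7.86% were called higher at 6, 12 and 24 h, and 0.878%, 10.3% and 8.02% lower. Of the 10 muscle and rhabdomyosarcoma markers 2 were called higher at 12 h, and 2 higher and 1 lower at 24 h. A fibroblast marker was called higher at 6 h and at 12 h, and an epithelial marker at 24 h. Of 5 measured leukocyte and macrophage markers limma called 0 at these times. The part of these genes, and of the poly-A control signals given above, in the EPAS1 result was not tested. In such a bulk sample a smaller number of cells with a transcript and less of it per cell cannot be told apart.

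HIF1A was read at 12.26 and 12.32 at 0 h, 12.26 and 12.27 at 6 h, 12.13 and 12.26 at 12 h, and 12.25 and 12.11 at 24 h. The arrays of 6 h overlapped those of 0 h, and those of 12 and 24 h lay just below them, by less than the gap between the replicates of 12 or of 24 h. The changes were -0.02, -0.09 and -0.11, each ± 0.07 (SE), and did not pass (adjusted p = 0.914, 0.429 and 0.395). Their 95% intervals, from -0.28 at the lowest to 0.15 at the highest, do not reach the estimated EPAS1 fall at any of the 3 times. The intervals of HIF1A and EPAS1 (200878_at) overlapped at 24 h (-0.28 to 0.06 and -0.46 to -0.14), though not at 6 or 12 h. Their difference at single times was not tested. The HIF1A probe set was among the brightest, above 98.0% of all. Whether its signal was saturated was not tested.

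**Figure D2:**
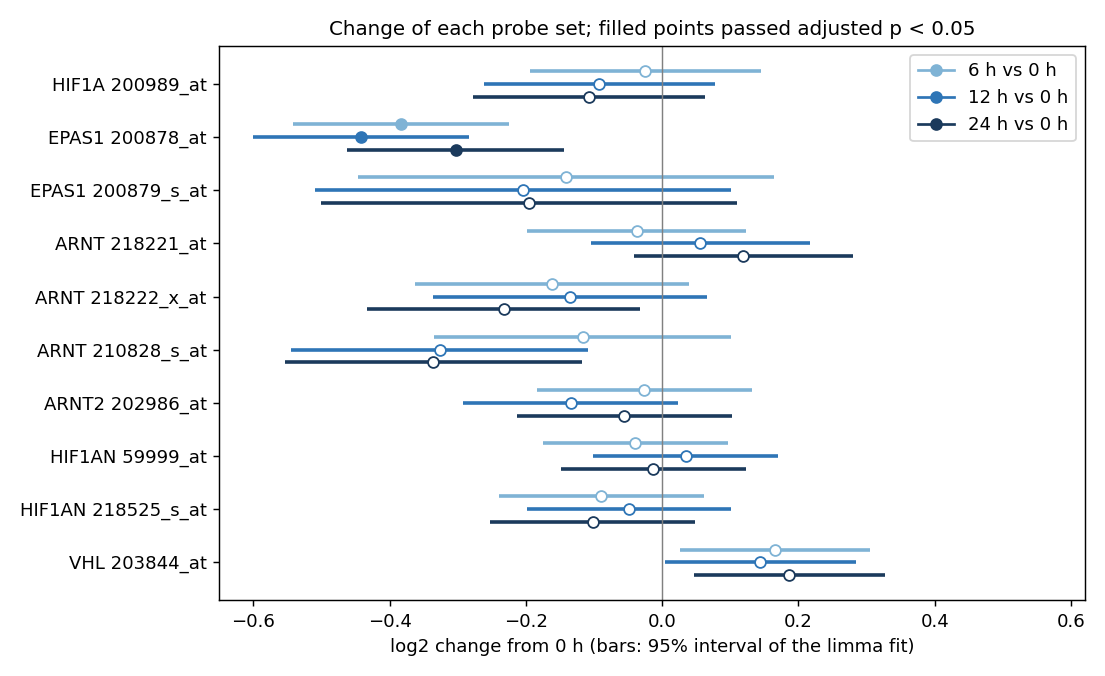
Log2 change from 0 h (horizontal axis) of each probe set at 6, 12 and 24 h, with 95% intervals of the limma fit; filled points passed an adjusted p under 0.05. The filled points are the 3 of EPAS1 200878_at, at -0.38, -0.44 and -0.30, and the 27 open ones lie between -0.34 and 0.19.

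To set the alpha subunits against each other, the EPAS1 signal (200878_at) was subtracted from the HIF1A signal within each array. The level of this difference has no meaning by itself, since the probe sets differ, but its change does. It was 2.37 and 2.47 at 0 h, 2.71 and 2.86 at 6 h, 2.70 and 2.85 at 12 h, and 2.65 and 2.59 at 24 h. All 6 hypoxic arrays were above both arrays at 0 h, with the 24 h arrays lowest among them. The mean rose from 2.42 ± 0.07 (SD, n = 2) to 2.72 ± 0.11 (SD, n = 6), by 0.30 (two-sided exact permutation test over arrays, p = 0.0357, the smallest that its 28 splits allow). These 6 arrays pool the times 6, 12 and 24 h, with means of 2.78, 2.77 and 2.62. The SD of 0.11 therefore holds more than the spread of replicates. The EPAS1 values enter this difference, so it is not separate from the EPAS1 result above, and the comparison was chosen with earlier results of these data known. Without either 0 h array the smallest possible p is 0.143.

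**Figure D3:**
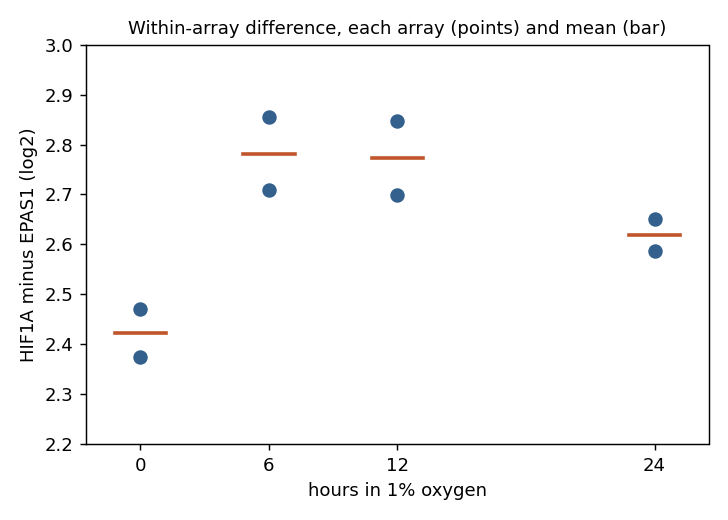
HIF1A minus EPAS1 log2 signal within each array (points) against hours in 1% oxygen, with a bar at the mean of each time. The 2 arrays at 0 h, at 2.37 and 2.47, lie below all 6 hypoxic arrays, which lie between 2.59 and 2.86.

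ARNT encodes HIF-1β, the partner that both alpha subunits share with the aryl hydrocarbon receptor and that is held to be insensitive to oxygen. Its brightest probe set, 218221_at, read 7.75 and 7.83 at 0 h, 7.77 and 7.73 at 6 h, 7.86 and 7.83 at 12 h, and 7.98 and 7.83 at 24 h. Arrays of 6 and 12 h overlapped those of 0 h, and both 24 h arrays lay above them, the second only barely. The changes of -0.04, 0.06 and 0.12 (each ± 0.07 SE) did not pass (adjusted p = 0.855, 0.62 and 0.312).

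The remaining ARNT probe sets had the same sign as this one at 6 h and the opposite sign at 12 and 24 h. Probe set 210828_s_at was dim, brighter than only 26.5% of all probe sets. It read 5.33 and 5.21 at 0 h, 5.25 and 5.05 at 6 h, 4.91 and 4.97 at 12 h, and 5.02 and 4.84 at 24 h. Its arrays of 12 and 24 h all lay below those of 0 h, and its changes were -0.12, -0.33 and -0.34 (each ± 0.09 SE). The changes at 12 and 24 h missed the threshold narrowly (adjusted p = 0.0529 and 0.0514), and at 6 h it was 0.602. Further quantile normalization took 12 h past it (-0.39, adjusted p = 0.0333). Leaving out either 24 h array took 12 h past it as well (adjusted p = 0.0497), and leaving out either 12 h array took 24 h past it (0.0483), while without 0 h replicate 1 both times were far from it (0.248 and 0.261).

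Probe set 218222_x_at, whose suffix marks probes that may also match other transcripts, read 6.86 and 6.90 at 0 h, 6.71 and 6.73 at 6 h, 6.71 and 6.78 at 12 h, and 6.52 and 6.77 at 24 h. All 6 hypoxic arrays lay below both arrays at 0 h, with 24 h replicate 1 far below its partner. The changes of -0.16, -0.14 and -0.23 (each ± 0.09 SE) did not pass (adjusted p = 0.396, 0.328 and 0.122). At 24 h it passed without 24 h replicate 2 (-0.36, adjusted p = 0.0253), and with the dimmer probe sets (below the median) removed (adjusted p = 0.0349). So no direction can be given for ARNT as a gene: 1 probe set was at 0.12 and the others at -0.23 and -0.34 at 24 h, with standard errors of 0.07 to 0.09.

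ARNT2 encodes a close relative of ARNT that is best known from the brain and kidney. Its probe set read 4.52 and 4.45 at 0 h, 4.43 and 4.49 at 6 h, 4.30 and 4.40 at 12 h, and 4.38 and 4.48 at 24 h. The 12 h arrays both lay below those of 0 h, and arrays of 6 and 24 h overlapped those of 0 h. The changes of -0.03, -0.13 and -0.06 (each ± 0.07 SE) did not pass (adjusted p = 0.905, 0.221 and 0.66). This probe set was dim, above 16.3% of all, and a signal that low holds much background, so its fold changes may be understated.

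Of the inhibitors, HIF1AN passed at no time by either of its probe sets. The brighter, 59999_at, read 9.07 and 9.04 at 0 h, 9.00 and 9.03 at 6 h, 9.13 and 9.05 at 12 h, and 9.06 and 9.03 at 24 h. Its range over all 8 arrays, 0.12, was the narrowest of the 10 probe sets. The changes of -0.04, 0.03 and -0.01 (each ± 0.06 SE) did not pass (adjusted p = 0.811, 0.723 and 0.914), and their intervals reached from -0.18 to 0.17.

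The other HIF1AN probe set, 218525_s_at, read 7.68 and 7.55 at 0 h, 7.51 and 7.54 at 6 h, 7.55 and 7.58 at 12 h, and 7.54 and 7.49 at 24 h. A single 12 h array fell between the 0 h replicates, and the arrays of 6 and 24 h lay just below both. Its changes of -0.09, -0.05 and -0.10 (each ± 0.06 SE) did not pass either (adjusted p = 0.551, 0.646 and 0.36).

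VHL was the only member with a higher mean at every hypoxic time, and it did not pass. Its probe set read 3.15 and 3.20 at 0 h, 3.30 and 3.37 at 6 h, 3.28 and 3.35 at 12 h, and 3.37 and 3.35 at 24 h. All 6 hypoxic arrays lay above both arrays at 0 h, and the hypoxic times overlapped. The changes were 0.17, 0.14 and 0.19 (each ± 0.06 SE), with unadjusted p = 0.026, 0.0447 and 0.0154 and adjusted p = 0.209, 0.148 and 0.0818. The signal was brighter than only 1.65% of all probe sets, close to the floor of the array. There, small shifts of background cannot be told apart from a change of transcript.

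Across the 9 probe sets that were not called there were 27 changes from 0 h, of which 23 were smaller than 0.2 on the log2 scale and 21 had an interval that held 0. For comparison, 84.9%, 68.9% and 73.3% of all probe sets, called ones included, changed by less than 0.2 at 6, 12 and 24 h. The interval left out 0 for 3875, 6981 and 6366 of all 22215 at these times. Since the 27 changes leave out the called probe set, small ones are favoured among them by that choice. The intervals of the 27 reached from -0.55 to 0.33. A miss at this precision therefore does not show that ARNT or VHL stayed level.

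The rest of the pathway was read from the brightest probe set of each gene. Of 27 measured genes that modify, degrade or assist HIF, 3 were higher and 0 lower at 6 h, when 1.95% of 11963 genes were higher and 0.878% lower. At 12 h 3 were higher and 3 lower, against 6.55% and 10.3% of genes, and at 24 h 3 were higher and 4 lower, against 7.86% and 8.02%. The median change of the list at 24 h was -0.03, and that of all genes -0.01. EGLN3 and EGLN1, which encode HIF prolyl hydroxylases, and SIAH2, which encodes a ubiquitin ligase, rose at all 3 times.

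EGLN3 rose by 1.63, 2.04 and 2.36 (adjusted p = 0.000171, 3.02e-05 and 1.39e-05) and from 6 to 24 h by 0.72 (adjusted p = 0.019). EGLN1 rose by 1.51, 1.60 and 1.48, and SIAH2 by 0.33, 0.31 and 0.37 (adjusted p = 0.0352, 0.0145 and 0.0072). The 4 lower at 24 h were the coactivator gene CREBBP (-0.31, adjusted p = 0.036, and -0.26 with adjusted p = 0.165 by its other probe set), the chaperone gene HSP90AB1 (-0.28), the proteasome subunit gene PSMA7 (-0.25, and -0.28 with adjusted p = 0.0567 by its other probe set) and COPS5 (-0.24), a subunit of the COP9 signalosome. The last 3 are named after their values were seen, to complete the count. The probe set of EGLN1 and the brightest of PSMA7 carry the suffix x_at, whose probes may also match other transcripts. The partners of VHL in the ubiquitin ligase, ELOB, CUL2 and RBX1, were called at no time, and ELOC was called lower at 12 h (-0.31, adjusted p = 0.0234), with -0.09 and -0.12 at 6 and 24 h. EP300, the other coactivator gene, was called at no time (-0.03 at 24 h, adjusted p = 0.771).

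Of 14 measured relatives in the bHLH-PAS family, the protein family of the HIF subunits, 1 was higher at 6 h, against 1.95% of all genes, 1 at 12 h, against 6.55%, and 1 at 24 h, against 7.86%. The number called lower was 0 at 6 and 24 h and 2 at 12 h, where 10.3% of all genes were lower. The clock gene BMAL1 was the one at 24 h (0.34 ± 0.09, adjusted p = 0.0492), which its other probe set did not show (-0.03). The clock gene PER2 was the one at 6 and 12 h (0.36 and 0.45, adjusted p = 0.0432 and 0.00626). At 12 h BMAL2 and SIM1 were called lower, both at -0.27 (adjusted p = 0.0472 and 0.0385). BMAL2 was at -0.20 and -0.24 and SIM1 at -0.19 and -0.12 at 6 and 24 h, without passing, and the differences of 12 h from 6 and 24 h were not tested. PER2, BMAL2 and SIM1 are named after their values were seen. HIF3A, the gene of the last alpha subunit, was at -0.08, 0.14 and 0.20 and did not pass (adjusted p = 0.819, 0.463 and 0.307). Its other probe sets did not pass either: 222123_s_at was at 0.02, -0.19 and 0.13, and 222124_at at -0.12, -0.17 and -0.09.

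Most of the listed genes that HIF switches on rose. Of 32 measured targets 26 were higher at 6 h, against 1.95% of all genes, 29 at 12 h, against 6.55%, and 28 at 24 h, against 7.86%. None of the 32 was lower at these times by limma, against 0.878%, 10.3% and 8.02% of all genes. The median changes of the list were 1.36, 1.53 and 1.50. The largest at 24 h were BNIP3, a mitophagy receptor gene (3.31), PDK1, a kinase gene that restrains pyruvate oxidation (2.42), EGLN3 (2.36) and DDIT4, an mTORC1 inhibitor gene (2.26). EGLN1 and EGLN3 are in both lists, and the targets were listed with earlier results of these data known, so their direction is no independent evidence. At 24 h PFKFB4 (0.33), EPO (-0.08), CA12 (0.06) and ANGPTL4 (0.04), named after their values were seen, did not pass. PFKFB4 was called higher at 12 h (0.50, limma adjusted p = 0.0259). The mean signals of these genes at 0 h, in that order 5.58, 5.73, 5.75 and 6.39, lay below the array median of 6.7. A miss therefore does not show that they stayed level. P4HA2, a collagen prolyl hydroxylase gene, rose by only 0.37 at 24 h, beside an EPAS1 change of -0.30 at the same time.

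**Figure D4:**
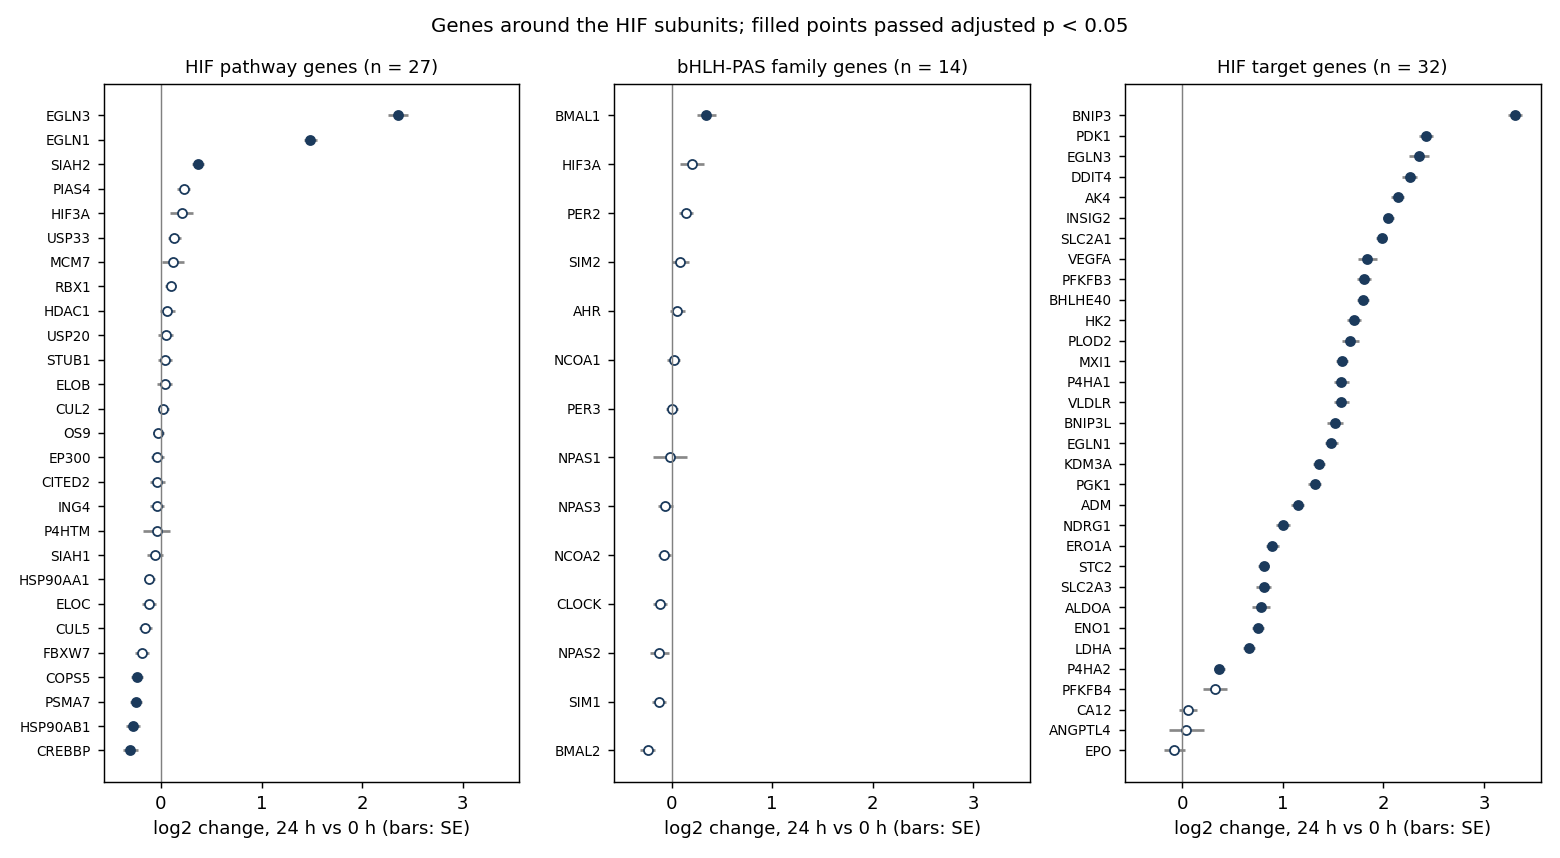
Log2 change at 24 h against 0 h (horizontal axes, bars are the SE) of 27 HIF pathway genes, 14 bHLH-PAS family genes and 32 HIF target genes; filled points passed an adjusted p under 0.05. Targets reach 3.31 (BNIP3), while pathway genes other than EGLN3 and EGLN1 lie between -0.31 and 0.37.

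The genes with the pattern most like that of EPAS1 over the 8 arrays, among 1569 genes called in the time course test, were TUFT1 (Pearson r = 0.98), the copper transporter family gene SLC31A2 (0.98) and the RNA helicase gene DDX42 (0.97). They were at -0.40, -0.32 and -0.28 at 6 h, -0.42, -0.48 and -0.33 at 12 h, and -0.27, -0.32 and -0.26 at 24 h. These are descriptions: 77 of the 1569 genes had an r above 0.9, and all share the same 8 arrays. No such genes are named for the other members, since their brightest probe sets were not called in that test.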

How the data were processed

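Total RNA of 8 samples was amplified, biotin-labelled and hybridised to Affymetrix arrays, per the labels' protocols. The deposited values are log2 probe set signals that the authors made with RMA, per the submitters' processing notes; for version, software and build, the sources used here give nothing. RMA in its usual form equalises the arrays, so changes are relative to other transcripts. The table held 22277 probe sets, 62 of them controls, which were left out. Names came from the platform annotation of 2016 (19070 with 1 symbol, 1043 with several, 2164 not listed), updated through a RefSeq table of GRCh38.p14; promoters are RefSeq's.

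limma 3.58.1 (R 4.3.3) estimated a mean per time from all 8 arrays (4 residual degrees of freedom, prior 3.70), two-sided, with Benjamini-Hochberg adjustment over 22215 probe sets and no filter. Array number limits precision. Data were simulated like 24 h against 0 h with 22215 probe sets and 200 changed. Of changes of 0.5 and 1 on the log2 scale 53.8% and 90.2% were recovered, with 4.7% false calls. In the real data 3257 probe sets were called at 24 h, so this recovery need not hold there. Changes smaller than 0.5, such as those of the members, were not simulated.

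Members, lists and the rule for names (every member probe set; per list up to 4 called genes with the largest change at 24 h, or 2 if none; 3 genes most like each member called in the F-test) were chosen with earlier results of these data known. The alternatives covered the variance trend, low signals, centring, normalization, block, samples fitted, 1 probe set per gene and each array left out. Deviations of same-numbered arrays correlated at -0.13 to 0.08 between times, so no shared deviation was seen and the main fit had no block. With 2 arrays a time this cannot show whether the numbers pair arrays.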

Additional observations from a re-analysis of the deposited data

How the results depend on the processing

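Of 568 recomputed member values 550 kept their side of the threshold, 9 lost a call (all EPAS1 200878_at) and 9 gained one (ARNT); no called value changed sign, and 15 uncalled ones did. The member count of 1 became 2 at 12 h with quantile normalization, and 2 at 24 h without probe sets dimmer than the median. With each array left out it ran from 0 to 1 at 6 h and over the time course, and from 0 to 2 at 12 and 24 h. HIF1A minus EPAS1 ran from 0.25 to 0.35; without a 0 h array its p of 0.143 is the smallest possible. HIF1A has 1 probe set, so a second one could not be tried. With the replicate block the member count was 2 at 12 and 24 h, through ARNT 210828_s_at (adjusted p = 0.0435 and 0.0424), and HIF1A minus EPAS1 was 0.31 in replicate 1 and 0.29 in replicate 2. The causes were not tested.

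Calls over all probe sets, 600, 3602, 3257 and 328 at 6, 12, 24 and 24 against 6 h and 2796 over the time course, moved by over 1.5 times as follows. A variance trend gave 1911 at 6 h, 1568 for 24 against 6 h and 5533 over the course. Removing the dimmer probe sets, which left fewer to test, gave 2077, 1538 and 5102. The block gave 334 at 6 h and 129 for 24 against 6 h. Fits of only the groups compared gave 2294 at 12 h and 171 for 24 against 6 h. With 1 probe set per gene there were 2202 at 12 h and 2123 at 24 h, but of only 11963 probe sets tested, so these counts do not show a lower share called. With single arrays left out the counts ran from 84 to 650, 857 to 3949, 951 to 3516, 19 to 452 and, over the course, 417 to 3668. The lowest came without 0 h replicate 2 at 6, 12 and 24 h, without 6 h replicate 1 for 24 against 6 h, and without 0 h replicate 1 over the course.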

Other observations

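CITED2, whose protein competes with HIF for the coactivators, was read differently by its probe sets. It was named after its values were seen. The brighter, 209357_at, was at 0.00, -0.16 and -0.04 at 6, 12 and 24 h and did not pass (limma adjusted p = 0.998, 0.188 and 0.808). Probe set 207980_s_at was at -0.31, -0.48 and -0.41, and passed at 12 and 24 h (adjusted p = 0.103, 0.00882 and 0.0151). The difference between the probe sets was not tested.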
